A study of Mus musculus with 13 samples.

Results

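Chromatin at 42 interferon response genes was examined in 4T1 cells with and without the nucleoporin gene Nup210. The genes were chosen by name, with earlier results of these data known. The set held interferon receptors, transcription factors, RNA sensors, antiviral effectors, guanylate-binding proteins and feedback regulators. Their symbols were looked up in 6 lists of ChIP-seq peaks that together name 18562 genes. Of the 42 genes, 39 were named in at least 1 list. No list named Irf4, Oas2 or Rsad2, for which no read count can be given.

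4T1 is a metastatic mammary tumor line derived from a BALB/cJ mouse. The control cells, sg-Ctrl, carried a non-targeting guide RNA, and the Nup210 knockout (KO) cells were clone KO-N13, a single-cell clone made with a guide RNA to Nup210 and Cas9, so all KO values describe 1 clone. H3K4me3, a mark of active or poised promoters, and H3K27me3, the mark laid down by Polycomb repressive complex 2, were profiled in both, while NUP210 and the nuclear pore complex (NPC, with an antibody to several nucleoporins) were profiled in sg-Ctrl alone. Each was 1 library, so no test over replicates was possible, and the 95% intervals below cover counting error only, not the difference between cultures.

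Interferons bind the receptors encoded by Ifnar1 and Ifnar2 (type I) or Ifngr1 and Ifngr2 (type II), which activate STAT and IRF factors. A complex that contains STAT2 and IRF9 binds the interferon-stimulated response element (ISRE), and type II interferon acts through the gamma-activated site (GAS). Their targets encode proteins that detect viral RNA, block viral replication, or shut the pathway off again, and in tumor cells the same genes can be active without added interferon.

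The H3K4me3 lists held 11018 peaks in sg-Ctrl and 10854 in KO, and the H3K27me3 lists 9555 and 8874. Relative to sg-Ctrl, the depth of the KO library was 1.27 for H3K4me3 and 3.16 for H3K27me3. The epithelial markers Epcam, Krt8, Krt18 and Cdh1 had an H3K4me3 promoter peak in both libraries, whereas 0 of 4 immune and 0 of 2 endothelial markers had one. The promoter of Nup210 itself kept its peak in KO, with a log2 ratio of -0.41, and the protein that the guide targets cannot be judged from it.

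The promoters of 6 genes are shown first, because Gbp2 and Oas3 had the largest falls in H3K4me3 density, Gbp3 and Ifit1 changed in H3K27me3, Isg15 changed in peak shape, and Rsad2 was in no list. Each is the 200 bases before a RefSeq start, 5′ to 3′ on the gene's strand in GRCm38.p6, with capitals marking each match to the ISRE core GAAANNGAAA on either strand (read as TTTCNNTTTC on the opposite strand).
Gbp2 (chr3:142620463-142620662, plus strand): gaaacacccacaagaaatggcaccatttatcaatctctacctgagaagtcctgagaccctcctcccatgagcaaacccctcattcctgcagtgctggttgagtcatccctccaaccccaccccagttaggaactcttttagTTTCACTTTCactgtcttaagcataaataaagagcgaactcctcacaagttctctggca
Gbp3 (chr3:142559844-142560043, plus strand): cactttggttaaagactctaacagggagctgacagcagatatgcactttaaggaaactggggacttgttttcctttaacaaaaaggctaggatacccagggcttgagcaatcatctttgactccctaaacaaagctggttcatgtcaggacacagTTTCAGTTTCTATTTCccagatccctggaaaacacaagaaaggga
Ifit1 (chr19:34640689-34640888, plus strand): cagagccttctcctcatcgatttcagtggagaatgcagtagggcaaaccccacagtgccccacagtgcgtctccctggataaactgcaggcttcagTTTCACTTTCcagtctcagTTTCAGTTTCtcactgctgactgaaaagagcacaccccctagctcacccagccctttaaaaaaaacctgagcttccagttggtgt
Isg15 (chr4:156200819-156201018, minus strand): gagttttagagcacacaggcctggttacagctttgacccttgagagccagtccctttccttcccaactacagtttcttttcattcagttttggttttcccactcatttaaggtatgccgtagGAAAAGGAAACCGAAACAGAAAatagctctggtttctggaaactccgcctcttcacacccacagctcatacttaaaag
Oas3 (chr5:120777660-120777859, minus strand): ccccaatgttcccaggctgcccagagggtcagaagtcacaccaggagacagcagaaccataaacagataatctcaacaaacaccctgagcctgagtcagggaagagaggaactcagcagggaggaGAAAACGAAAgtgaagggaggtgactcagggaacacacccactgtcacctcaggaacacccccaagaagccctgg
Rsad2 (chr12:26456453-26456652, minus strand): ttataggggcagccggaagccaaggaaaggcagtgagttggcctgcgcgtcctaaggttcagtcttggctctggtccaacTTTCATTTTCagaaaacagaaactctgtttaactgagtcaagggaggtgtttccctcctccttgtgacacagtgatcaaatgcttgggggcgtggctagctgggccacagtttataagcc

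The last 28 bases shown for Gbp3 and 25 for Oas3 lie inside the wider gene span that RefSeq gives for these genes. In Isg15, 3 overlapping matches follow one another, and in Gbp3 the 2 matches overlap. RefSeq promoter sequences, from 250 bases before to 50 bases after the start, were found by symbol for 34 of the 42 genes. The ISRE core was present in 14 of them (41.2%), against 3.99% of the 27025 genes with a promoter sequence. The GAS letters TTCNNNGAA were present in 11 (32.4%, against 9.55% of all genes), among them the promoters of Irf1 and Socs3. A TATA box (TATAAA, either strand) was present in 7 (20.6%, against 15.7%). The 3 motifs were searched on both strands and do not contain one another. A match is a run of letters and does not show that a factor was bound. Of the genes whose H3K4me3 could be compared between libraries, the 12 with an ISRE core had a median log2 ratio of -0.34 and the 18 with a promoter sequence but no ISRE core one of -0.27.

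The promoters of most of these genes carried H3K4me3 in both libraries. A peak within 4 kb of a gene start was listed for 36 of the 42 genes in sg-Ctrl and for 35 in KO, and all 35 of the latter were also in sg-Ctrl. Of the 39 interferon genes in any list, 36 had such a peak in either library. Of all genes in any list, 68.4% had one in either library and 31.6% in neither. Neither library had a promoter peak for Irf4, Ifit3, Oas2, Mx1, Rsad2 or Gbp4. Of these 6, Irf4 encodes a lymphoid transcription factor, Ifit3 an RNA-binding antiviral protein of the IFIT family, Oas2 an oligoadenylate synthetase and Gbp4 a guanylate-binding protein. Rsad2 encodes viperin, a radical enzyme that makes a chain-terminating nucleotide. Mx1, of a family of dynamin-like GTPases that trap viral particles, is annotated as a transcribed pseudogene in GRCm38.p6.

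Ifi44, an interferon-induced cytoplasmic protein, had a promoter peak in sg-Ctrl alone. Among all 12693 genes with a promoter peak in either library, 2.02% had it in sg-Ctrl alone and 1.89% in KO alone. The Ifi44 peak was weak, with 39 reads against 9 IgG reads over 0.6 kb. Its fold over IgG was 4.08.

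Levels are given as scaled reads per kb, meaning the ChIP reads of the promoter peak with the highest density, divided by the size of the ChIP library relative to its IgG library and by the width of the peak. On this scale the median of the 35 genes with a peak in both libraries was 434 in sg-Ctrl and 357 in KO, and that of all 12197 genes with a peak in both was 543 and 382. In sg-Ctrl, 15 of the 35 were in the bottom 25% of all genes and 4 in the top 25%. IgG at the promoter peaks of the 35 genes ranged from 0 to 45.0 reads per kb in sg-Ctrl, with a median of 10.7, close to the 10.6 of all genes.

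**Figure D1:**
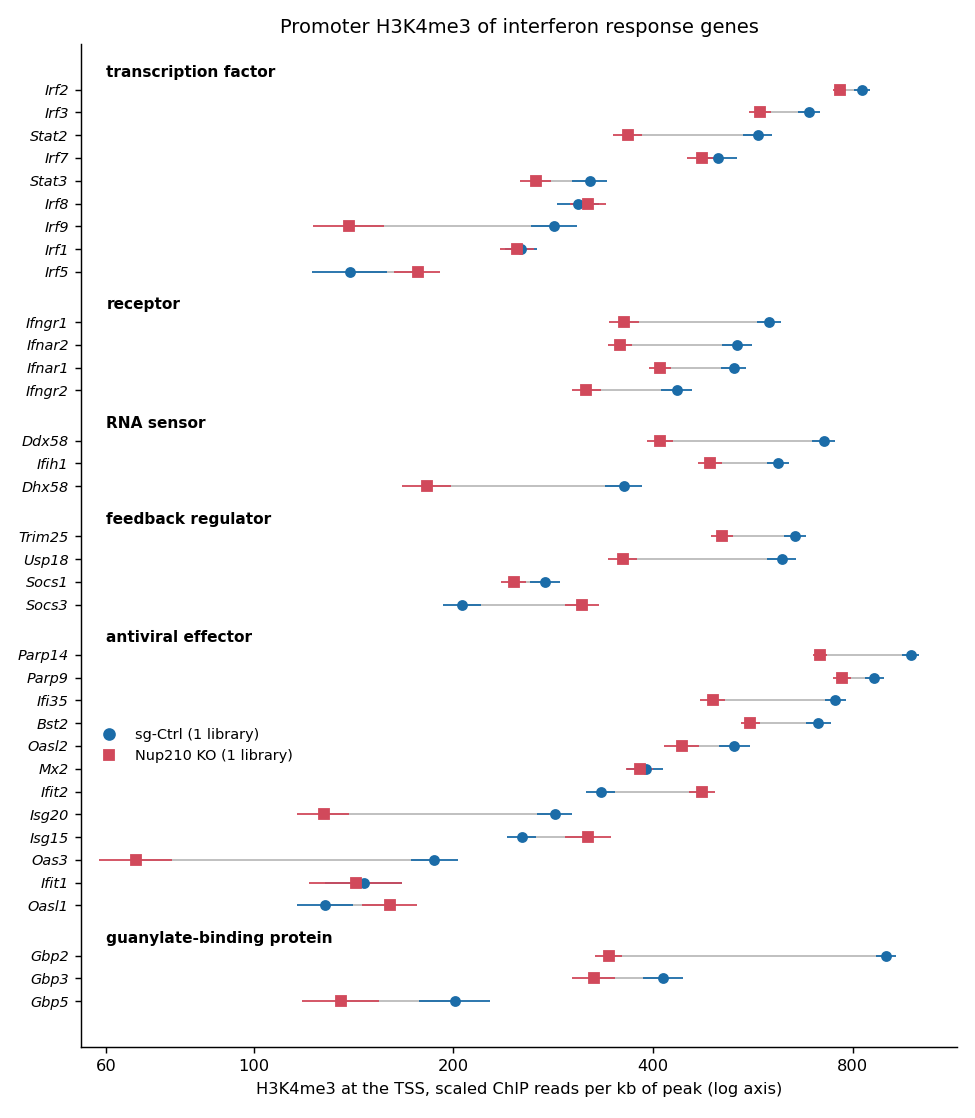
H3K4me3 at the promoters of 35 interferon response genes, as scaled ChIP reads per kb of peak on a log axis, in sg-Ctrl (blue circles) and Nup210 KO (red squares), with genes grouped by role; horizontal bars are 95% Poisson intervals of the read counts, from 1 library each. Gbp2 and Oas3 show wide gaps between the libraries, while Irf1, Mx2 and Ifit1 overlap, and Socs3, Ifit2 and Irf5 lie to the right in KO.

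With both libraries scaled by size, the log2 ratio of KO to sg-Ctrl had a median of -0.34 over the 35 genes and of -0.50 over all 12197 genes. It was below 0 for 29 of the 35, and for 88.7% of all genes. With the scale set instead by peaks that had the same position in both libraries, the all-gene median became -0.03, the median of the interferon genes 0.13, and 12 of the 35 were below 0 (53.4% of all genes). The sign of a single small ratio therefore depends on the scaling. Above the all-gene median lay 23 of the 35, where 50% of all genes do, a count that a change of library scaling leaves as it is. It was 18 with the deposited fold over IgG and 17 with the total reads of all promoter peaks.

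Of the 35 genes, 4 (11.4%) were at least 2-fold lower in KO, close to the 9.66% of all genes, and 0 were at least 2-fold higher, against 0.525% of all genes. The 4 were Oas3, Gbp2, Isg20 and Irf9. Peak positions are those of the lists, in GRCm38. Relative to the all-gene median, 0 were 2-fold lower (0.926% of all genes) and 2, Ifit2 and Socs3, were 2-fold higher (2.2% of all genes). The counting interval of the ratio lay below 0 for 25 genes, above 0 for 5 and across 0 for 5, against 82.8%, 6.72% and 10.5% of all genes.

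Oas3, an oligoadenylate synthetase that activates RNase L, had the lowest ratio. Its peak at chr5:120775001-120778000 held 596 reads in sg-Ctrl (187 scaled reads per kb) and that at chr5:120775001-120777800 held 251 in KO (66.5 scaled reads per kb), over the same 72 IgG reads. The log2 ratio was -1.49 (95% interval -1.71 to -1.28), and the fold over IgG went from 7.80 to 2.59. The peak kept nearly the same width, and genes of chromosome 5 as a whole had a median of -0.72. The KO peak of Oas3 was the least enriched over IgG of all 35.

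Gbp2 encodes a guanylate-binding protein, a large GTPase that gathers on pathogen vacuoles. In sg-Ctrl its promoter was among the strongest of the interferon genes, with 3238 reads at chr3:142619001-142622400 and 898 scaled reads per kb. In KO the peak at chr3:142618401-142622400 held 1848 reads and 343 scaled reads per kb, a log2 ratio of -1.39 (95% interval -1.47 to -1.31). The level of Gbp2 stood at percentile 85.8 of all promoters in sg-Ctrl and 40.8 in KO, while its neighbours on chromosome 3, Gbp3 and Gbp5, had ratios of -0.35 and -0.57.

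Isg20, an interferon-induced exonuclease of single-stranded RNA, had 1085 reads in sg-Ctrl and 481 in KO, or 284 and 127 scaled reads per kb (log2 ratio -1.16, 95% interval -1.31 to -1.0). Irf9, the DNA-binding subunit of the ISRE-binding complex, had 602 and 263 reads, or 284 and 139 scaled reads per kb (log2 ratio -1.03, 95% interval -1.24 to -0.81). Both peaks were also narrower in KO, so their total scaled reads had log2 ratios of -1.52 and -1.54. Just outside the 2-fold limit was Dhx58, with a ratio of -0.98. Over all 13 ways of computing the ratio, the reported one included, Oas3 ranged from -2.00 to -0.77, Gbp2 from -1.49 to -0.89, Isg20 from -1.52 to -0.66 and Irf9 from -1.54 to -0.37.

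**Figure D2:**
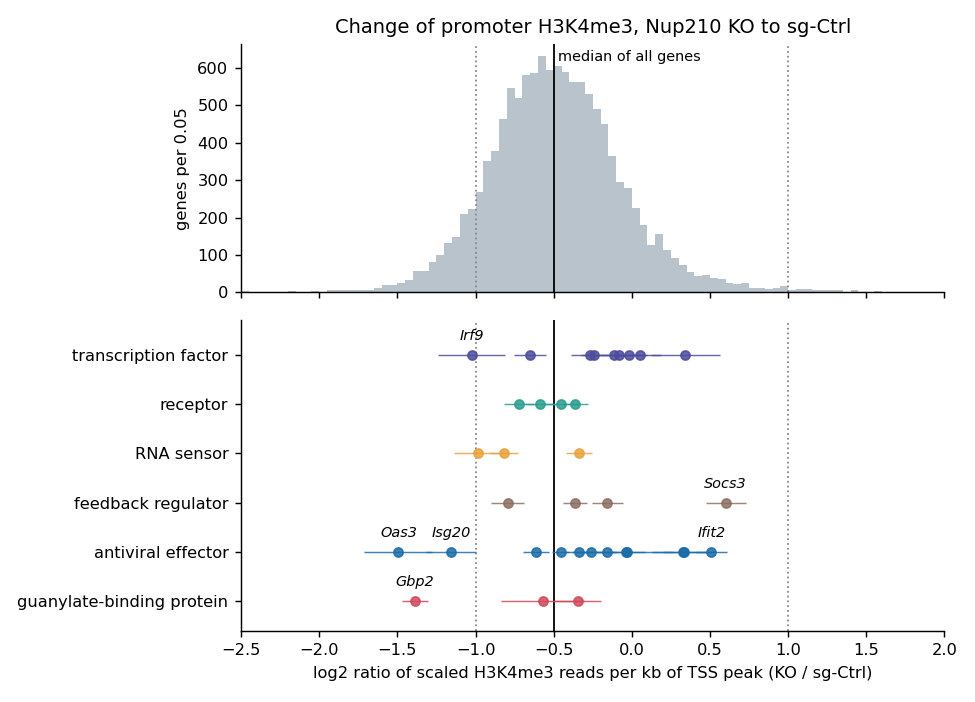
Upper panel, number of genes per 0.05 of the log2 ratio (KO to sg-Ctrl) of scaled H3K4me3 reads per kb, for all genes with a promoter peak in both libraries; lower panel, the 35 interferon response genes by role with 95% counting intervals. The solid line is the all-gene median of -0.50 and the dotted lines mark 2-fold; Oas3, Gbp2, Isg20 and Irf9 lie left of the lower dotted line and Socs3 and Ifit2 are farthest to the right.

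By role, the 4 receptor genes lay close together. In sg-Ctrl they ranged from 434 (Ifngr2) to 598 (Ifngr1) scaled reads per kb, and in KO from 317 (Ifngr2) to 410 (Ifnar1). The log2 ratios were -0.37 for Ifnar1, -0.59 for Ifnar2, -0.72 for Ifngr1 and -0.45 for Ifngr2, with a median of -0.52, next to the all-gene median. The counting intervals of all 4 lay below 0, but with scaling by shared peaks the ratios of Ifnar1 and Ifngr2 were above 0. Ifnar2 lost density while its peak grew from 2.4 to 4.4 kb, so that its total scaled reads had a log2 ratio of 0.29.

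The 9 transcription factor genes with a peak in both libraries spread more widely, with a median of -0.11. Irf2, a factor that competes with IRF1, was the highest at 827 in sg-Ctrl and 764 in KO (scaled reads per kb). Irf5, an IRF best known from myeloid cells, was the lowest at 140 in sg-Ctrl and reached 177 in KO (log2 ratio 0.34, 95% interval 0.12 to 0.56). Its peak also widened from 1.6 to 2.6 kb, from 237 to 619 reads, while the IgG reads under it went from 2 to 54 and the fold over IgG from 112 to 8.51.

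Irf1, the IRF induced by type II interferon, was at 253 in sg-Ctrl and 250 in KO, in scaled reads per kb, and Irf7, the amplifier of type I interferon production, at 501 and 474. The intervals of both ratios held 0. Stat2, the partner of IRF9, was at 575 and 366 scaled reads per kb, a log2 ratio of -0.65, whereas Stat3 was at 321 and 266 (-0.27) and Irf3, which switches on the interferon beta gene, at 687 and 580 (-0.24). For Irf8, a factor of myeloid cells, the densest peak lay downstream of the start and gave 308 and 319 scaled reads per kb; the peak over the start itself gave 191 and 162, a log2 ratio of -0.24.

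All 3 RNA sensor genes had ratios below 0 with library-size scaling, and Ddx58 and Dhx58 with scaling by shared peaks as well, as had 88.7% and 53.4% of all genes. Ddx58, which encodes RIG-I, was the highest of them at 723 in sg-Ctrl and 410 in KO (scaled reads per kb, log2 ratio -0.82, 95% interval -0.91 to -0.73). Ifih1, which encodes MDA5, was at 617 and 488 (-0.34). Dhx58, which encodes LGP2, was the lowest at 361 and 182 (-0.98, 95% interval -1.14 to -0.83). With a median of -0.82 the sensors had the lowest ratio of the 6 roles, over 3 genes. That median is the value of Ddx58, on chromosome 4, where all genes had a median of -0.72. Relative to the medians of their chromosomes, Ddx58 was at -0.10, Ifih1 at 0.08 and Dhx58 at -0.50.

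The 4 feedback regulators differed widely. Usp18, which removes ISG15 from proteins and blocks the type I receptor, was at 624 in sg-Ctrl and 360 in KO (scaled reads per kb, log2 ratio -0.80). Trim25, the ubiquitin ligase of RIG-I, which promotes signalling and is grouped here with the regulators, was at 655 and 508 (-0.37), and Socs1, an inhibitor of JAK kinases, at 275 and 247 (-0.16). Socs3, which acts on the STAT3 arm, had the highest ratio of all 35 genes, with 206 in sg-Ctrl and 313 in KO (scaled reads per kb, log2 ratio 0.60, 95% interval 0.47 to 0.73). Its peak shrank from 4.2 to 2.6 kb and its total scaled reads had a log2 ratio of -0.09, so the higher density came with fewer bases and not with more scaled reads.

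The 12 antiviral effector genes with a peak in both libraries ranged from Oas3 at -1.49 to Ifit2 at 0.51. Parp14, a mono-ADP-ribosyltransferase, was the highest of all 35 genes at 978 in sg-Ctrl and 714 in KO (scaled reads per kb), and Oasl1, a catalytically inactive relative of the oligoadenylate synthetases, the lowest at 128 and 161. Oasl2 was at 530 and 442 (log2 ratio -0.26), Bst2 (tetherin, which holds budding virions to the cell) at 709 and 561 (-0.34) and Parp9 at 862 and 770 (-0.16), on a peak listed for Dtx3l as well. Mx2 was at 390 and 382 and Ifit1 at 147 and 143.

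Ifit2, which like the other IFIT proteins binds viral RNA, was at 333.3 in sg-Ctrl and 474 in KO (scaled reads per kb, log2 ratio 0.51), with a peak that shrank from 4.2 to 2.8 kb and total scaled reads at a log2 ratio of -0.08. For Ifi35 the densest peaks of the libraries did not overlap, and the peak over its start gave 659 and 492 scaled reads per kb (-0.42).

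Isg15, a ubiquitin-like modifier, shows how the peak shape enters. Its start lay in a single peak of 5.6 kb in sg-Ctrl (chr4:156200001-156205600, 1505 reads), and in KO in a peak of 1.4 kb (chr4:156200201-156201600, 603 reads) next to a separate one of 2.0 kb (chr4:156202401-156204400, 553 reads). The density in the start peak was 253 in sg-Ctrl and 320 in KO (scaled reads per kb), which is a log2 ratio of 0.34, but the total reads of all its promoter peaks gave -0.74. These peaks were also listed for the neighbouring genes Agrn and AW011738.

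Density depends on the width of the peak as well as on its reads. The KO peak was wider than the sg-Ctrl peak in 17 of 35 genes and narrower in 16, whereas in all genes 63.1% were wider and 27.1% narrower. The median width stayed at 3.0 kb in both libraries, but over all genes it went from 3.6 to 4.2 kb. In total scaled reads of the peak, the median log2 ratio was -0.35 for the interferon genes and -0.32 for all genes, so the higher relative density of the former was not seen in their reads. Total scaled reads were higher in KO for 10 of the 35 genes, and for 22.4% of all genes. By total reads of the compared peak 6 genes were at least 2-fold lower (7.63% of all genes): Isg15, Oas3, Irf9, Isg20, Gbp2 and Dhx58. For Isg15 this left out the separate KO peak beside its start peak. With the reads of all promoter peaks Isg15 was at -0.74, and 5 genes were at least 2-fold lower (7.29% of all genes).

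**Figure D3:**
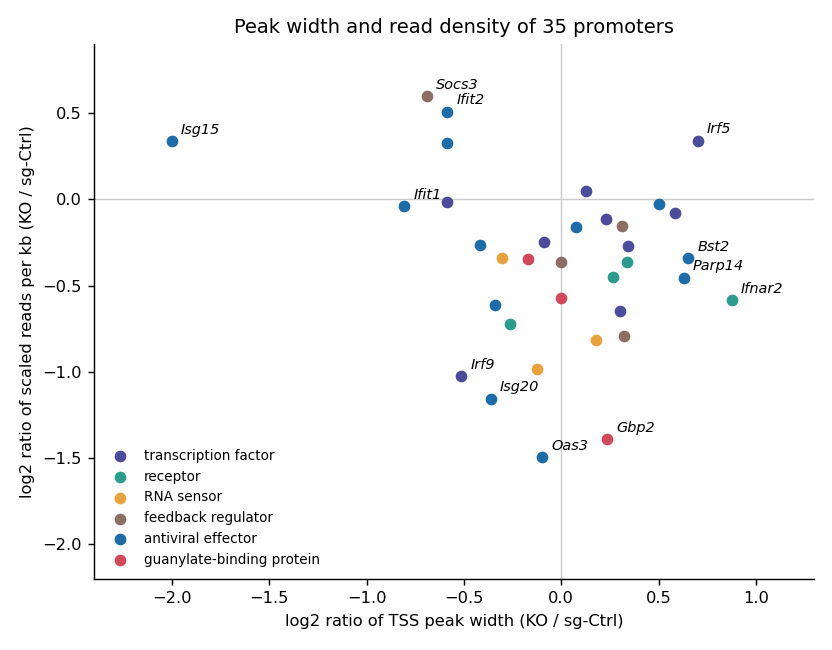
Log2 ratio (KO to sg-Ctrl) of promoter peak width on the horizontal axis and of scaled H3K4me3 reads per kb on the vertical axis, 1 point per gene for 35 interferon response genes, colored by role. Isg15, Socs3 and Ifit2 combine a narrower KO peak with a higher density, while Gbp2 has a slightly wider peak of much lower density.

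H3K27me3 peaks were listed on the bodies of 8 of the 42 interferon genes, all in 3 gene clusters. A gene-body peak was listed for 6 of 42 genes (14.3%) in sg-Ctrl and for 6 in KO, against 26.8% and 27.6% of the genes in any list. Of the genes with an H3K4me3 promoter peak, 6.33% and 5.19% had one, but the 42 include genes without a promoter peak and 3 genes in no list. Gene length was not matched in these shares. In sg-Ctrl, Gbp2 and Ifit1 counted only through overlaps of 8 and 9 bp at the gene end. With at least 10% of the body covered, 4 genes remained in sg-Ctrl and 6 in KO (23.8% and 25.1% of the genes in any list). Altogether 8 genes had a peak in at least 1 library, 4 in both, and 34 in neither. The 8 were Gbp2, Gbp3 and Gbp5 on chromosome 3, Ifit1, Ifit2 and Ifit3 on chromosome 19, and Mx1 and Mx2 on chromosome 16. Gbp3 and Mx2 had one in KO alone (4.75% of the genes in any list) and Ifit2 and Ifit3 in sg-Ctrl alone (3.97%). Among genes with an H3K4me3 promoter peak in either library, these shares were 0.709% and 1.85%. A list holds no reads where no peak was called. With the KO library 3.16 times as deep, the part of depth in peaks called in KO alone, or reaching farther in KO, was not tested.

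The covered length of gene body differed between the libraries in all 8 genes. In 4 of the 8 genes, Gbp2, Gbp3, Ifit1 and Mx2, KO peaks covered at least 50 percentage points more of the body, compared with 10.8% of the 5853 genes with H3K27me3 in either library and 16.5% of those of at most 30 kb, the size range of these 8. More of the body was covered in KO in 6 of the 8 genes and less in 2, compared with 42.7% and 28.4% of the 5853. Ifit3 had at least 50 points less, as had 5.35% of the 5853. Gbp2 and Gbp3 lie under the same KO peak, so the 4 genes are 3 separate places.

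At the Gbp cluster, the called H3K27me3 peaks stopped at the body of Gbp2 in sg-Ctrl and ran over it in KO. The lists give no reads for the part between the sg-Ctrl peaks, and the reads of a KO peak are those of its whole length. In sg-Ctrl a peak of 44.0 kb (chr3:142576001-142620000) ended just before the Gbp2 gene, and the next (chr3:142638001-142664000) began at its end, overlapping it by 8 bp. The gap between them, 18.0 kb, matched the 17.3 kb gene body. In KO a single peak of 100 kb (chr3:142564001-142664000), with 10919 reads and a fold over IgG of 2.25, spanned Gbp3, Gbp2b (Gbp1 in the lists) and Gbp2.

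Coverage of the Gbp2 body thus went from 0.008 to 17.3 kb, and that of Gbp3 from 0 to 9.21 of 13.2 kb. Gbp5 had H3K27me3 on 12.4 kb of its 25.4 kb in sg-Ctrl and on 16.4 kb in KO. Over a 200 kb window, 4 sg-Ctrl peaks covered 107 kb at a mean of 49.0 scaled reads per kb, and 3 KO peaks 174 kb at 39.0. The KO signal in this window was spread over more length, at a lower mean density.

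Beside these gains in H3K27me3, the H3K4me3 log2 ratio was -1.39 for Gbp2, -0.35 for Gbp3, -0.04 for Ifit1 and -0.03 for Mx2. Gbp7, a neighbour in the same cluster that is not among the 42 genes, gained full coverage and had a ratio of -1.02. Across all genes with promoter peaks in both libraries, 31 gained at least 50 points of H3K27me3 coverage, the genes just named included. Their median H3K4me3 ratio was -0.43, against -0.50 over all genes. Of the 31, 6 (19.4%, against 9.66% of all genes) were at least 2-fold lower, with Gbp2 and Gbp7 among them. A link between the 2 marks was not tested.

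At the Ifit cluster a similar gap lay over Ifit1. In sg-Ctrl, peaks of 65.0 kb (chr19:34572001-34637000, fold over IgG 2.62) and 120 kb (chr19:34650001-34770000, fold 3.32) left 13 kb free that contained Ifit1, apart from 9 bp at its end. In KO a peak of 82.0 kb (chr19:34590001-34672000, 9775 reads, fold 3.12) covered the whole 9.12 kb of Ifit1. On the other side of the cluster the mark was listed in sg-Ctrl and not in KO: Ifit3 went from fully covered (5.45 kb) to 0, and Ifit2 from 10.5 kb of 25.8 kb to 0. Of the Ifit2 coverage, 6.0 kb came from a peak with a fold over IgG of 1.28. Over 235 kb, covered length was 191 kb in sg-Ctrl and 175 kb in KO, at means of 51.2 and 45.0 scaled reads per kb.

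At the Mx cluster, 2 sg-Ctrl peaks covered 7.97 kb of the 15.9 kb of Mx1, and in KO a peak of 93 kb (chr16:97368001-97461000, fold 4.30) covered 13.97 kb. Mx2 gained a peak of 18.0 kb (chr16:97540001-97558000) that covered 72.5% of its body, with a low fold over IgG of 1.55. It began 3.92 kb past the Mx2 start and left the H3K4me3 peak outside. Both Mx genes are annotated as transcribed pseudogenes in GRCm38.p6. How reads that match several copies were handled is not given in the sources used here, so values of the Gbp, Ifit, Oas and Mx families, which have close copies, are uncertain to that extent.

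**Figure D4:**
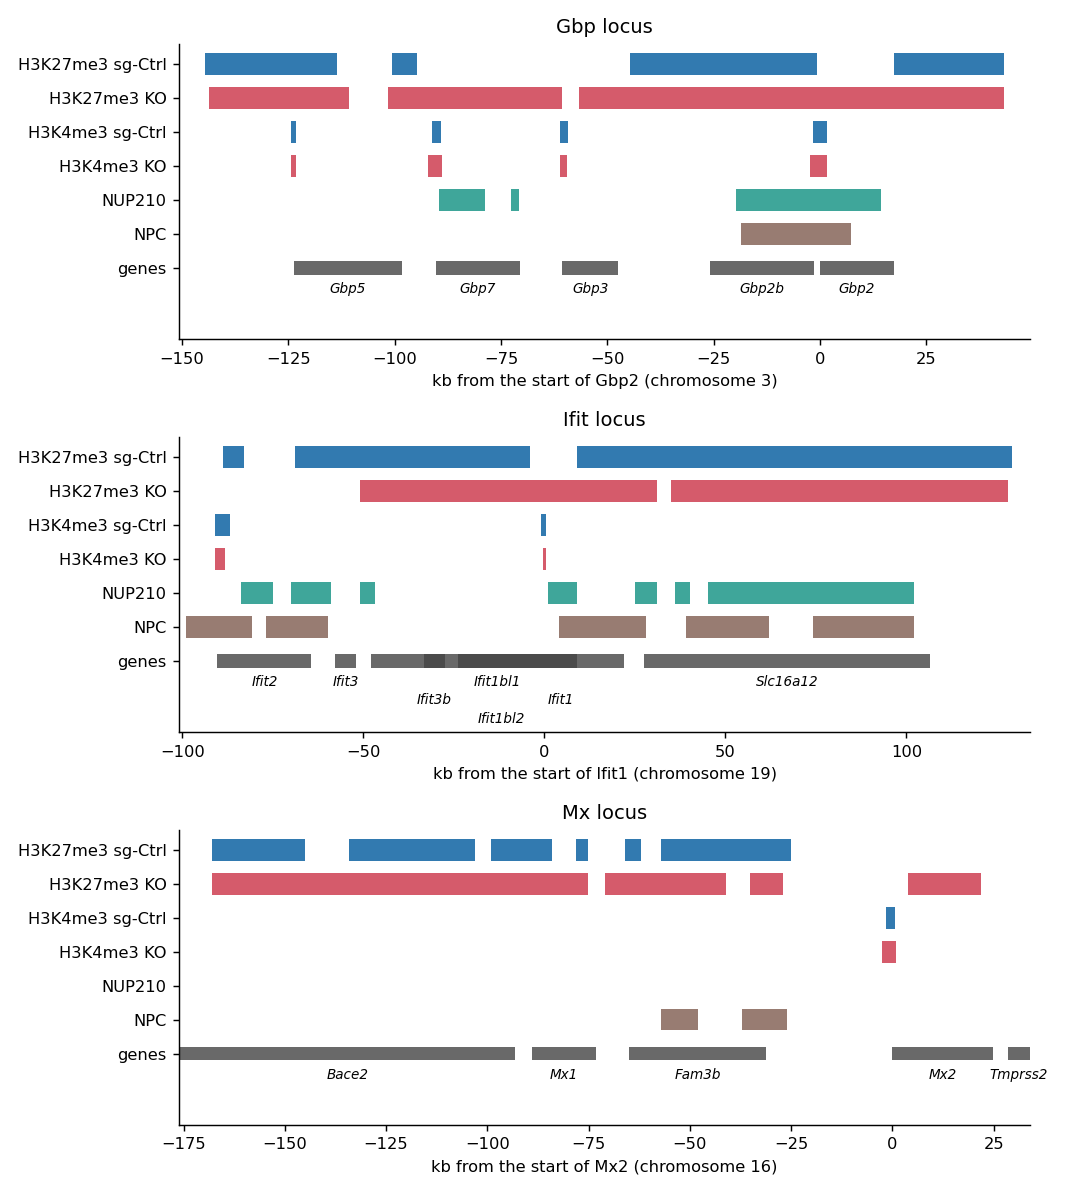
Peaks of H3K27me3, H3K4me3, NUP210 and NPC at the Gbp, Ifit and Mx clusters, with distance in kb from the start of Gbp2, Ifit1 and Mx2 on the horizontal axes; boxes are peaks (sg-Ctrl blue, KO red, NUP210 green, NPC brown) and genes (dark grey). The sg-Ctrl gaps of 18.0 kb over Gbp2 and 13 kb over Ifit1 lie under called KO peaks, and peaks are drawn only where the lists tie them to a gene.

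Few interferon genes carried NUP210 or NPC peaks. NUP210 was listed on 8 of 42 gene bodies (19%, against 33.9% of the genes in any list and 26.1% of those with an H3K4me3 promoter peak), and NPC on 7 (16.7%, against 30.8% and 24.7%). Gene length was not matched in these shares, and the 42 include 3 genes in no list. All 7 with NPC also had NUP210: Gbp2, Gbp4, Ifih1, Ifit1, Ifit2, Irf2 and Parp14, and Stat3 had NUP210 alone. Enrichment was weak, as in the lists as a whole, where 3.21% of NUP210 and 0.677% of NPC peaks reached 2-fold over IgG. Among the interferon genes the NPC folds ran from 0.99 to 1.19, and NUP210 reached an FDR of 0.05 or less on 6 genes.

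Of the 8 genes with NUP210, 1 had a peak of at least 2-fold over IgG, against 6.33% of all genes with NUP210. It was Stat3, a transcription factor that many cytokines and growth factors activate. Its NUP210 peak in the gene body (chr11:100928001-100934000) held 138 reads against 61 IgG reads, a fold of 2.24, higher than 98% of the NUP210 list. Next were Parp14 at 1.43, Irf2 at 1.41 and 1.14 for its 2 peaks, and Ifit1 at 1.27. The NUP210 density of the Stat3 peak, 22.7 scaled reads per kb, lay within the range of the other peaks, 19.6 (Ifit2) to 30.6 (Gbp2). Its IgG, 10.2 reads per kb, was below theirs, 17.9 (Ifit2) to 32.6 (Gbp2). The Ifit1 peak (chr19:34642001-34650000) lay inside the interval free of called H3K27me3 peaks in sg-Ctrl. The NUP210 peak over Gbp2 had more scaled IgG than ChIP reads, with a fold of 0.94, and Gbp4 one of 1.00, so neither was enriched by read number.

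**Figure D5:**
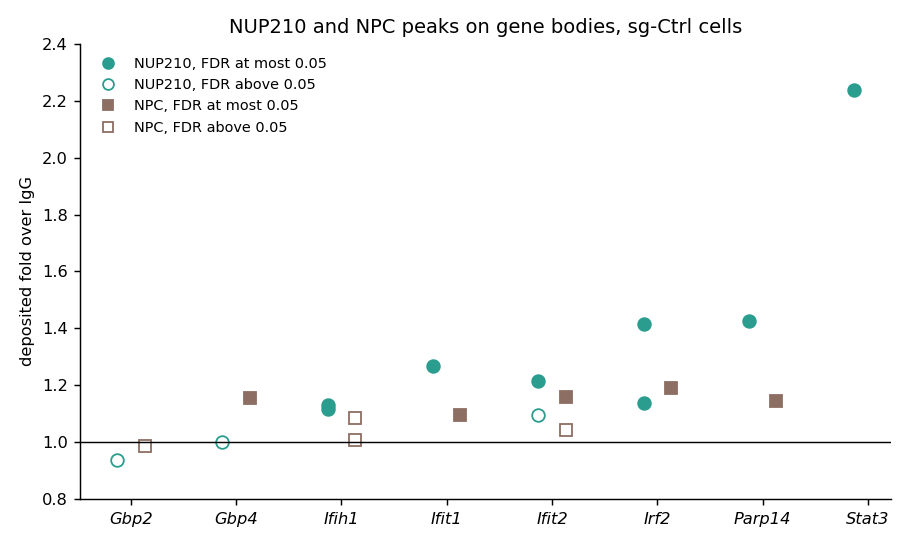
Deposited fold over IgG of each NUP210 peak (green circles) and NPC peak (brown squares) on the bodies of 8 interferon response genes in sg-Ctrl cells, filled where the FDR was at most 0.05. In fold, Stat3 stands apart at 2.24 while the other peaks lie between 0.94 and 1.43. Its peak has the fewest IgG reads per kb of the NUP210 peaks shown.

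A further 73 genes of the interferon pathway were chosen with earlier results of these data known. Some share a promoter peak, as Oas1b does with Oas1c and Dtx3l with Parp9. The shares below describe this list only. Of the 73 genes, 55 had a promoter peak in both libraries, with a median log2 ratio of -0.51, next to the all-gene median. These ratios were taken with library-size scaling alone, and the number past 2-fold depends on the scaling. With scaling by shared peaks, not applied to these genes, 1.07% of all genes were at least 2-fold lower. Chromosome medians were not taken off these ratios either. On chromosome 5, which holds Oas1a, Oas1g and Cxcl10, the median of all genes was -0.72. With library-size scaling, 10 of the 55 were at least 2-fold lower (18.2%, against 9.66% of all genes) and 0 were 2-fold higher. They were Ifi203 (-1.58) and Ifi204 (-1.51), DNA-binding proteins of the PYHIN family, Ifi30 (-1.46), a lysosomal thiol reductase, Tmem173 (-1.33), which encodes the adaptor STING, the oligoadenylate synthetases Oas1a (-1.25) and Oas1g (-1.18), Ptpn2 (-1.25), a phosphatase of JAK kinases, Cxcl10 (-1.16), a chemokine for T cells, Samd9l (-1.10), a translation inhibitor, and Gbp7 (-1.02).

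In 7 of these 10 the total scaled reads were at least 2-fold lower as well. The other three were Cxcl10, Gbp7 and Ifi30, and in Ifi30 the reads went from 1995 to 4510 as the peak widened from 2.0 to 9.8 kb. Sp100, Gbp6 and Cxcl9 had a promoter peak in sg-Ctrl alone, and 0 of the 73 in KO alone, against 2.02% and 1.89% of the genes with a promoter peak in either library. The Cxcl9 peak was strong, at 472 scaled reads per kb and 73.4-fold over IgG, and those of Sp100 and Gbp6 held 144 and 61 reads. H3K27me3 was listed on 7 of the 73 genes in sg-Ctrl and on 12 in KO, against 26.8% and 27.6% of the genes in any list, again not matched for gene length. Gbp7, between Gbp5 and Gbp3, went from 0 to full coverage of its 19.7 kb, under a KO peak of 41.0 kb (chr3:142519001-142560000, fold 2.54).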

How the data were processed

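The 42 genes, their roles, the list of 73 further pathway genes and the motifs were chosen with earlier results of these data known. Peaks were called by the authors with SICER, per ChIP library, over IgG (window 200 bp for H3K4me3, 1000 bp otherwise); the aligner used for these libraries is not given in the sources used here. Per peak, the authors deposited unscaled counts of ChIP and of IgG reads, the p-value, the FDR and the fold (a ratio to scaled IgG), with peaks paired with promoters or gene bodies. Gene spans fitted GRCm38.p6 (87.8% of 5799 within 50 bp) and not NCBIM37 (2.48% of 5775).

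The ratio of ChIP to IgG library size, from 0.606 (NPC) to 2.68 (H3K27me3, KO), was recovered from counts and folds, and total depth beyond it is unknown. ChIP reads were divided by it and by peak width. Per gene, the densest promoter peak was taken, and 2-fold was the limit. Intervals are exact 95% Poisson or conditional binomial intervals. Alternatives were other scalings, peaks, measures and limits. All member genes are accounted for, and those named with values are the ones past 2-fold, in 1 list, in no list or with H3K27me3, and the extremes of each role; other members were added after their values were seen. The scripts were tested on simulated data. RNA-seq (4 samples) was not analysed here, and the 3 IgG samples entered only through the lists. Python 3.11.15, numpy 2.4.6, scipy 1.17.1, pandas 2.3.3 and matplotlib 3.10.9 were used.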

Additional observations from a re-analysis of the deposited data

How the results depend on the processing

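The median H3K4me3 log2 ratio of the 35 genes, -0.34 as reported, was 0.13 with scaling by shared peaks, 0.16 relative to the all-gene median, 0.11 relative to each chromosome's median and 0.0057 with no library scaling. The difference from the all-gene median was 0.16 as reported, 0.0075 with the deposited fold and -0.0056 with the total reads of all promoter peaks. The 4 genes at least 2-fold lower became 1 with scaling by shared peaks (1.07% of all genes), 0 relative to the all-gene or chromosome median (0.926% and 0.844%), 2 with no library scaling (1.91%) and 11 with a limit of 1.5-fold (41.3% of all genes). The 0 genes at least 2-fold higher became 1 with scaling by shared peaks, total reads or a limit of 1.5-fold (2.01%, 1.70% and 1.67% of all genes), 2 with the deposited fold or relative to the all-gene median (2.48% and 2.20%), and 4 relative to the chromosome median (2.16%). Of 2 genes with H3K27me3 in KO alone, 1 remained at 2-fold over IgG, and there were 4 when a peak had to cover at least 10% of the body. NUP210 was found on 1 gene at 2-fold over IgG, and NPC on 3 at an FDR of 0.01 and on 0 at 2-fold. The peak over the gene start, and leaving out genes that share a peak, were alternatives chosen after seeing the data. No paired analysis was possible because each condition was 1 library. A gene with no peak has no read count, so depth limits what the lists can show.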
